A study of Mus musculus with 9 samples.

Results

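The activator protein 1 (AP-1) transcription factors were followed in retinal RNA-seq as 10 genes taken by symbol, Fos, Fosb, Fosl1, Fosl2, Jun, Junb, Jund, Atf3, Batf and Maff, out of 22337 genes in the expression table. All 10 were present, each in 1 row. Retinas were taken at P28 from 3 groups with 3 libraries each. WT was C57 BL/6J and received no treatment. NS-treated rd10 received normal saline and MSC-EVs-treated rd10 received extracellular vesicles of human umbilical cord mesenchymal stem cells, in both cases 1 µl into the vitreous of both eyes at P14 and again at P21. In the rd10 mouse, photoreceptors are lost because Pde6b, which encodes part of the phosphodiesterase of rods, is mutated. The rd10 groups were littermates, whereas WT mice came from another supplier and were not injected, so that genotype, colony and injection cannot be told apart in any comparison with WT. The labels do not say whether the libraries came from separate animals, and the p-values measure the spread between these libraries only.

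AP-1 is a dimer of basic leucine zipper (bZIP) proteins. A FOS protein pairs with a JUN protein and the dimer binds short DNA elements, while JUN proteins can also pair with one another and ATF, BATF and small MAF proteins join some of the dimers. Many of these genes are immediate-early genes, which respond within minutes to growth factors, stress or neuronal activity through MAP kinase pathways. In the injured retina, AP-1 has been studied in dying photoreceptors, in Müller glia and in stressed ganglion cells.

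The libraries held between 19491717 and 62532343 estimated counts, and MSC-EVs replicate 3 was the deepest. Expression is given as CPM, a count divided by the size of its library, scaled with the TMM factors of edgeR, and levels are compared between genes only as FPKM, which is scaled to transcript length. The tissue label was checked with 7 rod markers, which summed to 70040 to 75420 CPM in WT, 13860 to 19940 in NS-treated and 14490 to 20510 in MSC-EVs-treated rd10. Y-linked genes were present in MSC-EVs replicates 1 and 2, with summed values of 182.7 and 188.4 CPM, and were between 0.236 and 0.501 CPM in the other 7 libraries. All NS-treated and all WT libraries were among these 7. Y-linked expression is thus partly tied to the MSC-EVs-treated group, and the 2 cannot be fully told apart in either comparison with that group. MSC-EVs replicate 2 stood apart from the others of its group in AP-1 expression, with a summed level of 548.7 CPM over the 10 genes against 246.7 and 282.5, and the tests of the members in MSC-EVs-treated rd10 are given below with and without it. These are bulk retinas, in which more cells of a type and more RNA per cell cannot be told apart.

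First, NS-treated rd10 was compared with WT, which asks how AP-1 expression stood in the degenerating retina. Every member was at a higher level in all 3 NS-treated libraries than in any WT library. Of the 9 members that passed the filter on low counts, 8 rose (edgeR quasi-likelihood test, Benjamini-Hochberg adjusted p under 0.05), where 31.2% of all 14644 genes tested rose, 30.1% fell and 61.3% changed in either direction. Of these 8, 6 rose by at least 1 on the log2 scale and are called differentially expressed, Fosb, Fosl1, Fosl2, Junb, Atf3 and Maff, against 9.16% of all genes tested. With at least 10 counts required in every library, which leaves out Fosl1, 7 of 8 members rose and 5 were differentially expressed. The libraries lay above WT without overlap in 33.6% of all genes tested. The median log2 fold change was 1.26 over the 9 tested members and 0.0053 over all genes tested. Cell type markers moved in the same comparison. All 7 microglia and macrophage markers rose, from sums of 28.1 to 30.8 CPM in WT to 167.4 to 213.7 CPM in NS-treated rd10, as did all 4 astrocyte and gliosis markers, from 68.1 to 74.9 CPM to 920.7 to 1287 CPM. Of 5 Müller glia markers 4 rose, Rlbp1 by 0.457, Slc1a3 by 0.676, Aqp4 by 1.02 and Sox9 by 1.90, while Glul, at -0.029, was not called. Their sums overlapped, at 3367 to 3612 CPM in WT and 3367 to 4283 CPM in NS-treated rd10. All 7 rod markers fell. The part of these cells in the AP-1 levels was not tested.

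**Figure D1:**
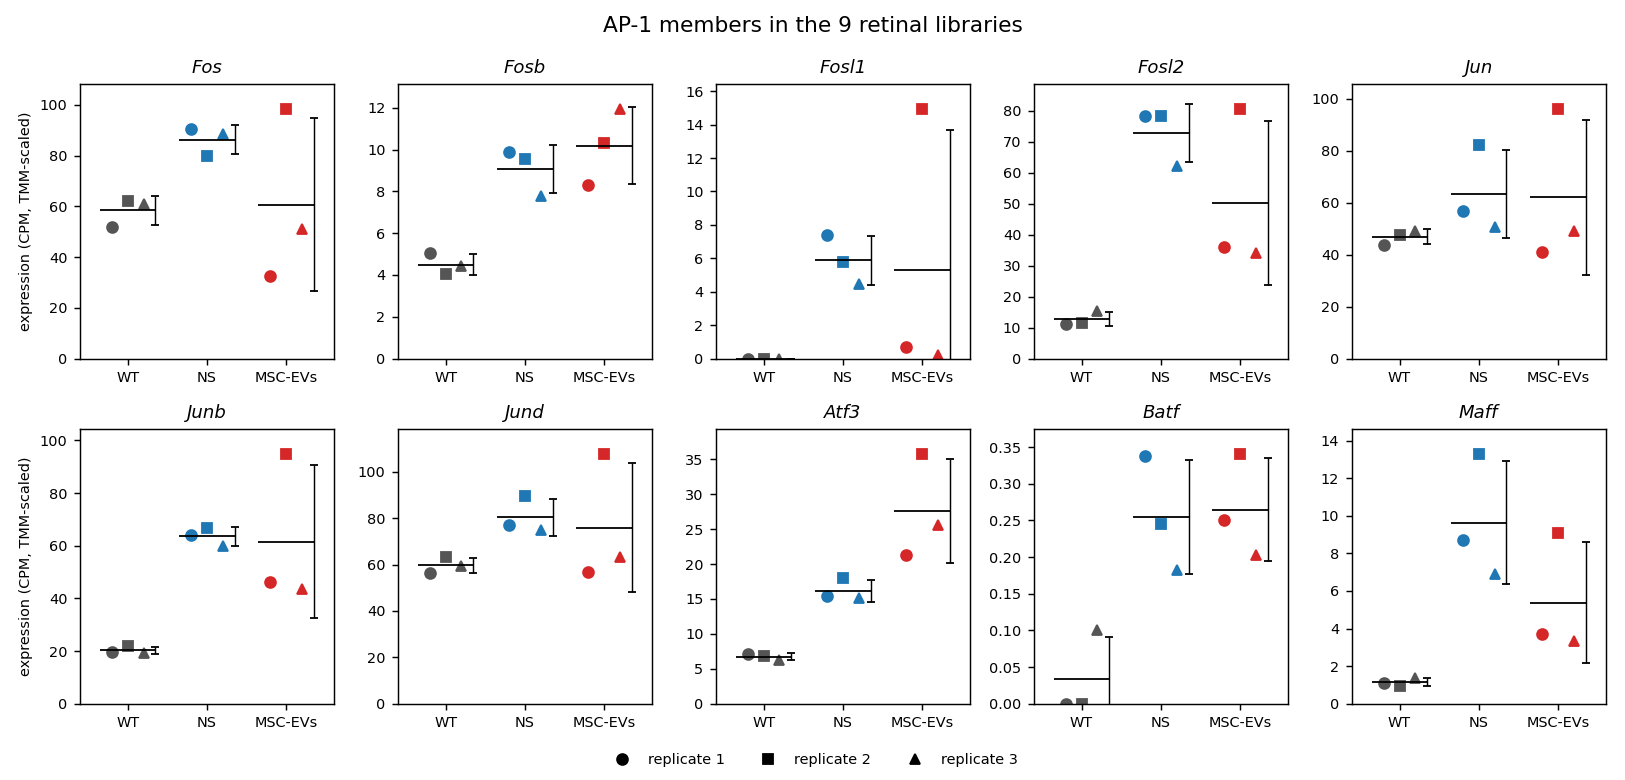
Expression of the 10 AP-1 members in CPM (y axis, linear and starting at 0, with its own scale for each gene) in the 3 WT, 3 NS-treated and 3 MSC-EVs-treated libraries. Points are libraries, marked by replicate, with horizontal lines at the group means and bars of 1 SD; the NS-treated libraries lie above all WT libraries in every panel, and MSC-EVs replicate 2 is the highest of its group in every panel but that of Fosb.

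Among the FOS genes with counts in every library, Fosl2 changed most. Fosl2 encodes FRA-2, a FOS protein that lacks the strong activation domain of FOS. Its level was 11.3, 11.6 and 15.5 CPM in WT and 78.4, 78.4 and 62.0 CPM in NS-treated rd10. The lowest NS-treated library was therefore far above the highest WT library. Fosl2 rose by 2.52 on the log2 scale (SE 0.13, edgeR adjusted p = 1.84e-07).

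Fosl1 encodes FRA-1, the related FOS protein that is often induced late and is itself an AP-1 target gene. It had 0 counts in all 3 WT libraries and 219, 118 and 98 counts in NS-treated rd10, or 7.39, 5.77 and 4.48 CPM. Set against a floor of 3 counts in each WT library, the NS-treated mean was at least 42.1-fold higher. It passed the filter only through the rd10 libraries and so had to differ, and no weight is put on its call. Of its exonic bases, 57.2% overlap Ccdc85b on the opposite strand, and the strand setting of the counting is not given in the sources used here. Ccdc85b itself was at 30.02 to 33.6 CPM in WT and at 34.8 to 36.6 CPM in NS-treated rd10. The part of Ccdc85b reads in the Fosl1 counts was not tested.

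Fos, the prototype immediate-early gene, was at 52.0, 62.3 and 61.0 CPM in WT and at 90.7, 79.8 and 88.6 CPM in NS-treated rd10. The groups did not overlap, although the difference was small beside that of Fosl2. Fos rose by 0.565 on the log2 scale (SE 0.078, edgeR adjusted p = 6.03e-05). Fosb, whose truncated splice product is known for its long persistence in neurons, was at 5.03, 4.03 and 4.41 CPM in WT and at 9.89, 9.54 and 7.78 CPM in NS-treated rd10. It rose by 1.02 (SE 0.15, edgeR adjusted p = 0.000103), close to the fold limit of 1, and lay between 0.939 and 1.12 when each library was left out in turn. In a fit of all 9 libraries, which shares the spread of the MSC-EVs-treated group, the calls of Fos (adjusted p = 0.229), Fosl1 (adjusted p = 0.0957) and Jund (adjusted p = 0.142) were lost.

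Of the JUN genes, Junb and Jund rose. Junb, whose protein activates transcription more weakly than JUN at many AP-1 sites, was at 19.6, 21.9 and 19.2 CPM in WT and at 64.2, 66.7 and 59.8 CPM in NS-treated rd10. It rose by 1.65 (SE 0.078, edgeR adjusted p = 8.47e-09), the smallest adjusted p among the members. Of the exonic bases of Junb, 7.5% overlap Prdx2 on the opposite strand, where reads of the 2 strands cannot be told apart here. Prdx2 was at 163.8 to 178.7 CPM in WT and at 202.5 to 252.2 CPM in NS-treated rd10. Jund, which is expressed in most cells without a stimulus, was at 56.5, 63.2 and 59.2 CPM in WT and at 77.1, 89.6 and 74.8 CPM in NS-treated rd10. The WT and NS-treated libraries of Jund did not overlap, and it rose by 0.43 (SE 0.077, edgeR adjusted p = 0.00042). In Jund, 52.6% of the exonic bases overlap the antisense gene Gm11175, which is not among the genes listed, so that reads of the 2 strands cannot be told apart here.

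Jun, the founding member and the main substrate of the JNK kinases, was at 43.6, 47.7 and 49.2 CPM in WT and at 56.7, 82.4 and 50.7 CPM in NS-treated rd10. NS replicates 1 and 3 lay close to the WT range and replicate 2 far above it. The log2 fold change was 0.432 (SE 0.183, 95% interval -0.011 to 0.875) and missed the threshold (edgeR adjusted p = 0.083). Without NS replicate 2 it was 0.20 with an adjusted p of 0.035, and without NS replicate 3 it was 0.568 with an adjusted p of 0.0119, so that the call depended on single libraries. It depended on the method too, since limma on log2(FPKM + 1) gave an adjusted p of 0.0117 with all 6 libraries. In Jun, 7.3% of the exonic bases overlap the antisense gene Junos, which is not among the genes listed.

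Maff changed most of all members with counts in every library. Maff encodes a small MAF protein without an activation domain, which pairs with NRF2 and BACH proteins as well as with its own kind. It was at 1.12, 0.940 and 1.35 CPM in WT and at 8.71, 13.3 and 6.91 CPM in NS-treated rd10. Each NS-treated library exceeded each WT library several times over. Maff rose by 3.08 (SE 0.27, edgeR adjusted p = 2.64e-06), from 21 to 27 counts per library in WT to 151 to 272.

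Atf3, a stress-inducible bZIP factor and a common marker of injured neurons, was at 7.14, 6.85 and 6.21 CPM in WT and at 15.4, 18.0 and 15.1 CPM in NS-treated rd10. It rose by 1.26 (SE 0.12, edgeR adjusted p = 1.86e-06), and its WT libraries were tightly grouped. Batf, a partner of JUN proteins known from lymphocytes and dendritic cells, had 0, 0 and 2 counts in WT and 10, 5 and 4 counts in NS-treated rd10. It did not pass the filter and was not tested. The ratio of its summed counts, scaled to depth, was 8.53 with a 95% counting interval of 2.06 to 75.5, which covers counting error only.

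The promoters of the members were searched for elements that AP-1, its relatives and serum response factor bind. RefSeq promoters of GRCm38.p6, 300 bases each from 250 before to 50 after the start, were matched for 9 of the 10 members with 11 promoters; Fosl1 had no entry. The letters searched on both strands were TGANTCA, the TPA response element; TGACGTCA, the cAMP response element; TGACATCA, the variant known from the JUN promoter; and the CArG box of serum response factor, by its name. No match to one of the 8-letter motifs can at the same position be a match to another. The following 30 bases are shown because they hold all matches among the members, with the matching 8 letters in capitals and the gene's own strand read 5′ to 3′.
Jun, TGACATCA, chr4:95052249-95052278, minus strand: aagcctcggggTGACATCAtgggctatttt
Maff, TGACGTCA, chr15:79347480-79347509, plus strand: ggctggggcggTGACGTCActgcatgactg
Maff, TGACATCA, chr15:79348346-79348375, plus strand: ctggagccatgTGACATCAgtgtttgttcc
The match began 45 bases before the start in Jun, 29 before the start of one Maff transcript and 45 before that of another. TGACATCA was in 3.62% of the 32851 promoters, TGACGTCA in 1.79%, TGANTCA in 7.81% and the CArG box in 1.63%, and the last 2 were in 0 of the 11 member promoters. Maff, with matches in both promoters, rose most of the members with counts in every library, whereas Jun missed the threshold. These matches describe the letters and not binding, and a promoter without a match says nothing of what binds it.

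On the FPKM scale, which allows levels of different genes to be compared, the order of the members in WT was Jund (33.1 ± 2.1, SD, n = 3), Fos (25.6 ± 2.5), Jun (13.6 ± 0.84), Junb (10.3 ± 0.82), Atf3 (3.14 ± 0.23), Fosl2 (1.81 ± 0.32), Fosb (1.28 ± 0.25) and Maff (0.54 ± 0.09), with Batf near 0 and Fosl1 at 0. Neighbours in this order did not overlap between libraries except Batf and Fosl1. In NS-treated rd10, Jund (50.5 ± 5.1) and Fos (42.9 ± 2.7) still led, while Junb (36.8 ± 2.0) stood above Jun (20.8 ± 5.6) and Fosl2 (11.7 ± 1.5) above Atf3 (8.52 ± 0.84). Below them followed Maff, Fosl1, Fosb and Batf, of which Maff and Fosl1, and Fosl1 and Fosb, overlapped with their neighbour. In MSC-EVs-treated rd10, Jund (47.2 ± 17.4), Junb (35.2 ± 16.7), Fos (29.8 ± 16.8), Jun (20.1 ± 9.7), Atf3 (14.4 ± 3.9) and Fosl2 (7.96 ± 4.2) each overlapped with the next. Without overlap, Jund lay above Jun, Atf3 and Fosl2, Junb lay above Atf3 and Fosl2, and Fos and Jun lay above Fosl2.

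The make-up of the summed AP-1 FPKM differed between WT and NS-treated rd10. The sum was 83.6, 94.4 and 90.3 FPKM in WT and 180.5, 197.9 and 170.6 FPKM in NS-treated rd10. Jund made up 36.2% to 37.5% of the sum in WT and 26.6% to 28.5% in NS-treated rd10. The share of Junb was 10.8% to 11.9% in WT and 19.6% to 20.4% in NS-treated rd10, and that of Fosl2 was 1.75% to 2.41% and 5.85% to 6.89%. In neither gene did the shares of the 2 groups overlap. In MSC-EVs-treated rd10 the sum was 114.6, 250.3 and 128.8 FPKM, yet the share of Junb was 19.1% to 23.2% in all 3 libraries. Atf3 held 7.49% to 10.3% of the sum there, above its share of 4.46% to 4.797% in NS-treated rd10. These shares are descriptions and were not tested.

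**Figure D2:**
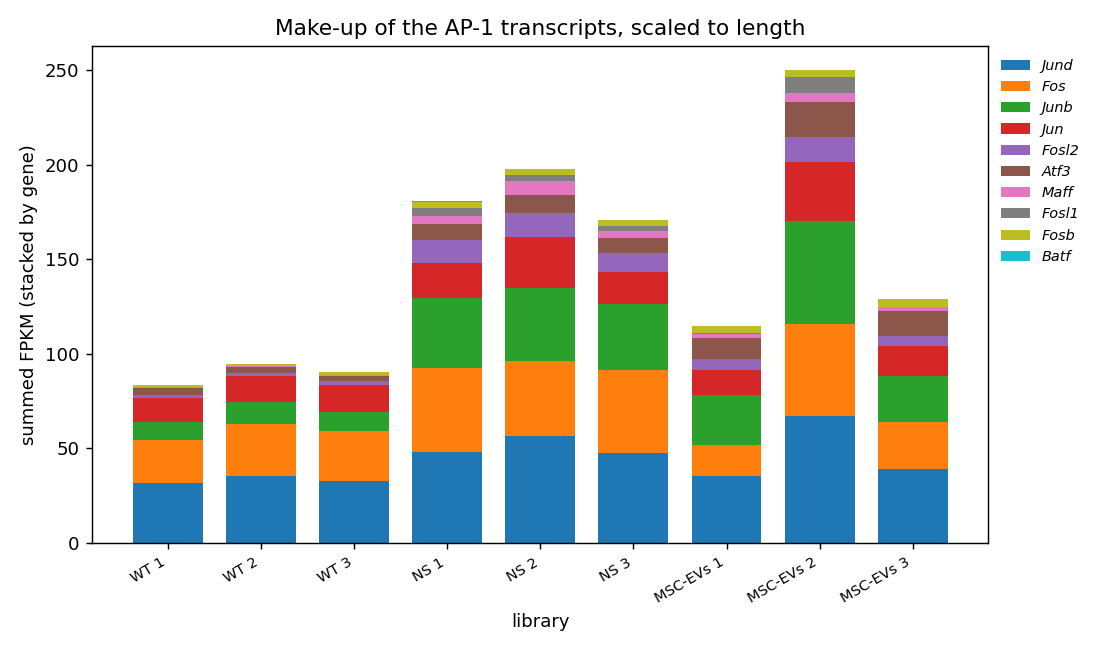
Summed FPKM of the 10 AP-1 members in each library (y axis, linear and starting at 0), stacked by gene, for the 9 libraries on the x axis. The sum lies at 83.6 to 94.4 in WT and at 170.6 to 197.9 in NS-treated rd10, and MSC-EVs replicate 2 reaches 250.3 while replicates 1 and 3 reach 114.6 and 128.8.

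Next, MSC-EVs-treated rd10 was compared with NS-treated rd10, which asks whether AP-1 expression differed with the vesicles. None of the 9 tested members passed the threshold with edgeR, 1 had an unadjusted p under 0.05, and the Wald test of DESeq2 called 1, Atf3 in both cases. Over all 14765 genes tested, 1.16% were called, 0.061% were differentially expressed and 20.2% had an unadjusted p under 0.05. The log2 fold change was below 0 in 7 members and above 0 in Fosb and Atf3, with a median of -0.082; over all genes tested, 49.6% were above 0. The intervals were wide in most members. That of Jun, for example, ran from -1.04 to 0.985 and that of Fos from -1.60 to 0.579 around -0.509, so that at this spread a fall of 1 log2 unit in either gene could not be told apart from no difference.

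Atf3 was the member with the smallest p. It was at 21.3, 35.8 and 25.6 CPM in MSC-EVs-treated rd10 and at 15.4, 18.0 and 15.1 CPM in NS-treated rd10, so that 3 of 3 MSC-EVs-treated libraries exceeded every NS-treated library, as in 12.9% of all genes tested. The log2 fold change was 0.773 (SE 0.19, 95% interval 0.344 to 1.20), and the adjusted p of 0.0851 with edgeR missed the threshold. It was 0.00161 with the Wald test of DESeq2 and 0.0237 in the fit of all 9 libraries. With limma it missed the threshold, at 0.0867 on log2(FPKM + 1) and 0.0811 on log2(FPKM + 0.1). With edgeR it also missed at 0.0865 with DESeq2 size factors, 0.0881 without a filter and 0.0824 with at least 10 counts in every library. An edgeR fit with a block for the replicate number gave 0.746 (adjusted p = 0.0278), although the labels mark no shared animal or day. With Y-linked expression as a covariate, where MSC-EVs replicate 3 alone stood for its group, the log2 fold change was 0.666. Leaving out each library in turn gave log2 fold changes of 0.549 to 0.93 and adjusted p-values of 0.037 to 0.29, the lowest of them without MSC-EVs replicate 2.

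The other members differed among the MSC-EVs-treated libraries more than they differed between the groups. Fosl2 was at 36, 80.7 and 34.0 CPM in MSC-EVs-treated rd10, against 62.0 to 78.4 CPM with NS. Replicates 1 and 3 thus lay below every NS-treated library and replicate 2 above every one. The log2 fold change of Fosl2 was -0.544 (SE 0.38, edgeR adjusted p = 0.497). Junb, at 46.2, 94.9 and 43.5 CPM against 59.8 to 66.7 CPM with NS, showed the same arrangement, with a log2 fold change of -0.05 (95% interval -0.889 to 0.788). Fos was at 32.4, 98.6 and 51.3 CPM, Jun at 41.1, 96.2 and 49.0 CPM and Jund at 56.8, 107.8 and 63.4 CPM. In each of these 3 genes as well, replicate 2 was above and replicates 1 and 3 below all NS-treated libraries.

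Fosl1 spread most widely, with 17, 351 and 14 counts or 0.709, 15.0 and 0.219 CPM, so that the highest MSC-EVs-treated library was 68.3 times the lowest. In NS-treated rd10 that ratio was 1.65. Maff was at 3.71, 9.08 and 3.33 CPM against 6.91 to 13.3 CPM with NS, with a log2 fold change of -0.863 (SE 0.46, edgeR adjusted p = 0.351). For Maff, replicate 2 lay inside the NS range. Fosb was the exception among the FOS genes, at 8.30, 10.3 and 11.96 CPM, with replicate 3 the highest and a log2 fold change of 0.177 (95% interval -0.189 to 0.544). Batf had 6, 8 and 13 counts, and its ratio to NS, scaled to depth, was 0.917 with a 95% counting interval of 0.492 to 1.75.

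MSC-EVs replicate 2 was the highest of its group in 9 of the 10 members, against 33.4% of all genes tested. This library was singled out by its summed level over the same genes, so the counts here describe it and test nothing. It was above every NS-treated library in 9 of 10, against 30.2%, where Batf did so by 0.341 CPM to 0.338. Replicates 1 and 3 were each below every NS-treated library in 7 of 10, Fos, Fosl1, Fosl2, Jun, Junb, Jund and Maff, against 20.6%. The median ratio of the highest to the lowest library was 2.26 over the members in MSC-EVs-treated rd10, 1.27 in NS-treated rd10 and 1.17 in WT, and over all genes tested it was 1.18, 1.17 and 1.12.

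Without MSC-EVs replicate 2, 6 of the 9 tested members were called by edgeR between the rd10 groups. Atf3 rose by 0.549 (adjusted p = 0.037), where 2.86% of all 14908 genes tested rose. Fosl1, with a fitted log2 fold change of -3.895 (adjusted p = 0.00617), Fosl2, which fell by 1.06 (adjusted p = 0.00266), and Maff, which fell by 1.45 (adjusted p = 0.0262), went down past the fold limit, against 0.329% of all genes tested. Junb fell by 0.502 (adjusted p = 0.013) and Jund fell by 0.414 (adjusted p = 0.0432), and 1.68% of all genes tested fell. Fos, at -1.03, had an adjusted p of 0.0504, and Jun and Fosb were not called. Without any other single library, 0 of the 9 members were called, but these fits called few genes of any kind, 0 without NS replicate 3 or MSC-EVs replicate 1 and at most 164. The library was left out because its AP-1 values stood apart, so these calls are given beside those of the full comparison and not in their place.

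**Figure D3:**
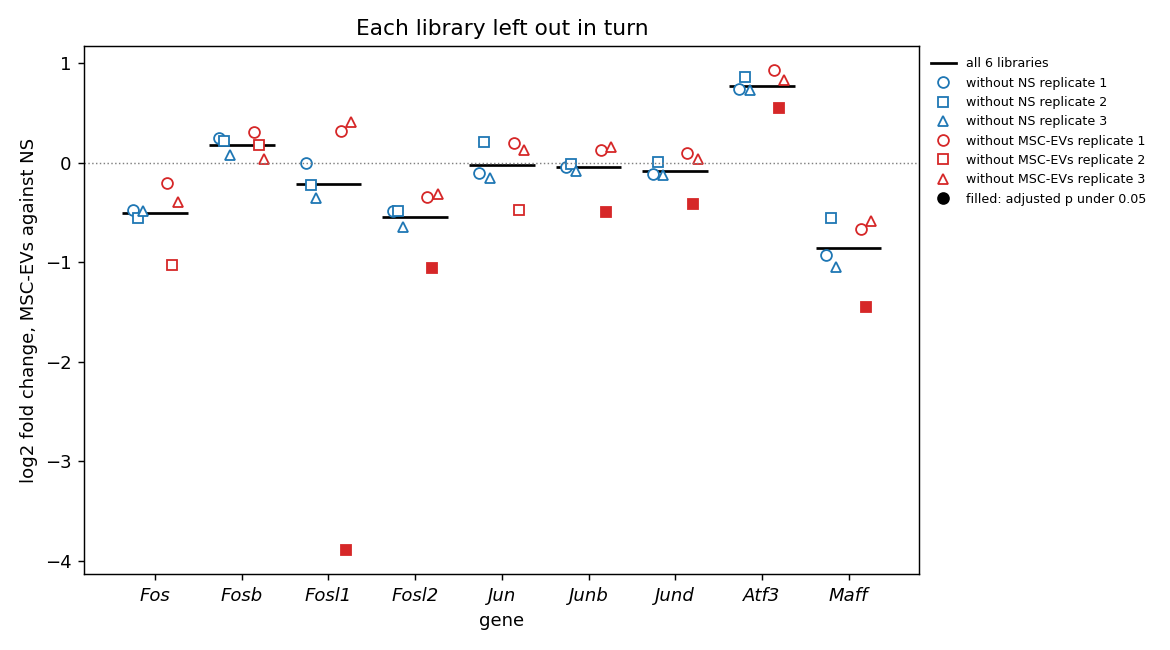
Log2 fold change of each tested AP-1 member between MSC-EVs-treated and NS-treated rd10 (y axis) with all 6 libraries (black lines) and with each library left out in turn (symbols by group and replicate, filled where the edgeR adjusted p was under 0.05). Filled symbols appear only without MSC-EVs replicate 2, in Fosl1, Fosl2, Junb, Jund, Atf3 and Maff, and Fosl1 spans -3.895 to 0.406.

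Cell type markers of MSC-EVs replicate 2 were set beside its AP-1 levels. Over all genes tested, this library was the highest of its group in 33.4%. It was the highest of its group in 6 of 7 microglia and macrophage markers, summing to 261.4 CPM against 210.2 and 148.2 in replicates 1 and 3 and 167.4 to 213.7 with NS. It was also the highest in 4 of 4 lens markers, at 89.7 CPM against 7.76 and 30.6 and 26.8 to 36.2 with NS, and in 4 of 4 fibroblast markers, at 30.8 CPM against 17.6 and 16.9 and 19.7 to 30.3 with NS. In WT replicates 1, 2 and 3 the lens sums were 29.03, 98.6 and 23.55 CPM. The AP-1 sums of the same libraries were 196.2, 218.4 and 216.2 CPM. MSC-EVs replicate 2 was the highest in 2 of 5 Müller glia markers, 1 of 4 astrocyte and gliosis markers and 0 of 4 pigment epithelium markers. Müller glia markers summed to 2783 CPM in replicate 2 and to 2967 and 3052 CPM in replicates 1 and 3, a sum carried mostly by Glul, whereas Sox9 of the same list was at 36.1, 75.97 and 28.1 CPM in replicates 1, 2 and 3. The 4 markers of infiltrating neutrophils and monocytes summed to 9.89, 8.05 and 1.66 CPM in these libraries, of which S100a8 and S100a9 were below 0.5 CPM in all 9 libraries. The part of any of these cells in the AP-1 levels was not tested.

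MSC-EVs-treated rd10 was also compared with WT. These libraries share the WT group with the first comparison and the MSC-EVs-treated group with the second, so the values are given side by side and not as further support. Of 8 tested members, 5 were called and differentially expressed, all higher than in WT, against 28.3% of all 14623 genes tested called higher and 9% differentially expressed and higher. Atf3 rose by 2.04 (SE 0.20, edgeR adjusted p = 8.15e-05), Fosb by 1.20 (SE 0.17, adjusted p = 0.000231) and Maff by 2.23 (SE 0.44, adjusted p = 0.00338). Fosl2 rose by 1.98 (SE 0.43, adjusted p = 0.0135) and Junb by 1.60 (SE 0.36, adjusted p = 0.0149).

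Fos, Jun and Jund, the members that were most abundant in WT, did not pass the threshold in this comparison. The log2 fold change of Fos was 0.059 (95% interval -1.09 to 1.21), that of Jun 0.41 (-0.498 to 1.32) and that of Jund 0.353 (-0.316 to 1.02), and the libraries of the 2 groups overlapped in each. The 5 called members and the untested Fosl1 and Batf lay above WT without overlap, as 31.9% of all genes tested did. Fosl1 was at least 37.9-fold above the WT floor of 3 counts per library on the group mean, and at least 3.32-fold above it without replicate 2. Batf was at 7.83 times WT with a 95% counting interval of 1.97 to 67.9. Without MSC-EVs replicate 2 the count was also 5, with Fosl2 at 1.45, Junb at 1.14, Maff at 1.62, Atf3 at 1.80 and Fosb at 1.19 (largest adjusted p of these, 0.000221), while Fos stood at -0.462, Jun at -0.048 and Jund at 0.013, none of them called. When Y-linked expression entered the fit as a covariate, MSC-EVs replicate 3 alone carried the group difference, since the genes were high in the other two, and a single library then stands for the group. Fosl2 (log2 fold change 1.42, adjusted p = 0.115) and Junb (1.103, adjusted p = 0.131) were not called in that fit.

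**Figure D4:**
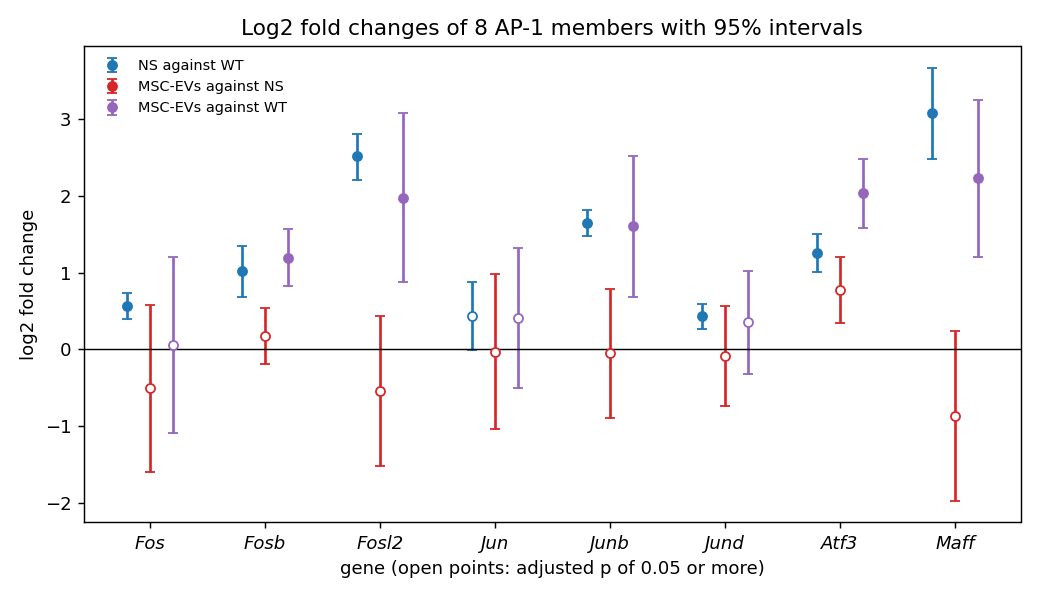
Log2 fold changes of the 8 AP-1 members tested in all 3 comparisons (y axis), with 95% intervals from the edgeR fit as bars, filled where the adjusted p was under 0.05 and open otherwise. The intervals of NS against WT are narrow, as for Junb at 1.65 with 1.48 to 1.82, and those of both comparisons with MSC-EVs are wider, as for Junb between the rd10 groups at -0.05 with -0.889 to 0.788.

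The other genes of the pathway were described by lists. Of 24 genes known to hold AP-1 sites or to depend on AP-1, 20 were tested between NS-treated rd10 and WT, and 19 rose, 15 of them past the fold limit, against 31.2% and 9.16% of all genes tested, with a median log2 fold change of 2.49. The list was chosen with earlier results of these data known, so these counts are descriptions and no independent support. Some genes passed the filter only through the rd10 libraries and so had to differ. Among these were Ccl2, at 0, 0.045 and 0 CPM in WT, and Plaur, at 0.18, 0.045 and 0.301 CPM. Hmox1, the heme-degrading enzyme, was at 3.68, 4.07 and 3.86 CPM in WT and at 31.8, 25.5 and 25.9 CPM in NS-treated rd10, and rose by 2.84 (adjusted p = 4.12e-09). Gadd45b, a stress sensor, rose by 2.55, Cd44, the hyaluronan receptor, by 3.13 and Sphk1, which makes sphingosine 1-phosphate, by 2.41. The 1 tested gene that missed the threshold was Gadd45a, at 0.074. These genes respond to other factors as well, and the microglia and gliosis markers given above rose in the same comparison. The part of those cells in these values was not tested.

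Between the rd10 groups, 2 of 22 tested target genes were called, both higher with MSC-EVs, as 0.914% of all genes tested were. Fgf2, a growth factor for photoreceptors and glia, was at 446.4, 369.2 and 446.6 CPM against 200, 249.4 and 192.6 CPM with NS, and rose by 0.979 (adjusted p = 0.0209). Cd44 was at 225.2, 228 and 179.8 CPM against 120.6, 141.6 and 150.5 CPM, and rose by 0.62 (adjusted p = 0.046). In neither gene did the groups overlap. Both calls were lost on dropping NS replicate 3, and likewise on dropping MSC-EVs replicate 1, as each of those fits called 0 genes. With MSC-EVs replicate 2 left out, the values were 1.06 (adjusted p = 0.00274) for Fgf2 and 0.561 (adjusted p = 0.0404) for Cd44. MSC-EVs replicate 2 was nevertheless the highest of its group in 14 of the 22 target genes tested, against 33.4% of all genes tested. Hmox1, Gadd45b and Sphk1 were among them, whereas Fgf2 was lowest in that library.

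The kinases and serum response factors upstream of AP-1 moved in both directions. Of 21 tested, 10 rose and 4 fell between NS-treated rd10 and WT, where 31.2% and 30.1% of all genes tested did, with a median log2 fold change of 0.073 and 1 gene past the fold limit. That gene was Map3k8, a MAP kinase kinase kinase of inflammatory signaling, which went from 0.895 to 1.35 CPM in WT to 4.73 to 6.75 CPM and rose by 2.29 (adjusted p = 5.01e-06). Map2k3, which activates p38, rose by 0.762, Elk3, a partner of serum response factor, by 0.905 and Mapk3, which encodes ERK1, by 0.409. Between the rd10 groups 1 was called, Map3k1, a kinase upstream of JNK. Map3k1 was at 143.2, 129 and 136.8 CPM with MSC-EVs and 85.1, 100.3 and 93.7 CPM with NS. It rose by 0.556 (adjusted p = 0.0252), and by 0.594 with MSC-EVs replicate 2 left out. Its call was lost on dropping NS replicate 3, and likewise on dropping MSC-EVs replicate 1, as each of those fits called 0 genes.

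Phosphatases that switch MAP kinases off were also mixed. Of 9 tested, 4 rose and 4 fell between NS-treated rd10 and WT, against 31.2% and 30.1% of all genes tested. Dusp16, which acts on JNK, rose by 1.04 and Dusp6, which acts on ERK, by 1.03, whereas Dusp7 fell by 0.933 and Dusp14 fell by 1.22. None of the 9 was called between the rd10 groups with edgeR, and Dusp6 had the log2 fold change farthest from 0, at -0.392 (adjusted p = 0.114).

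Other bZIP factors were mixed as well, with 6 of 17 tested rising and 7 falling, against 31.2% and 30.1% of all genes tested, and a median of 0.232. Nrl, the MAF-family factor of rod photoreceptors and itself a rod marker, fell by 2.28 (adjusted p = 4.33e-08), and Atf4, of the integrated stress response, fell by 0.639. Nfe2l2, which encodes the small MAF partner NRF2, rose by 0.606 and Mafk, another small MAF gene, by 0.876 (adjusted p = 0.000217). Between the rd10 groups 1 of 18 tested was called, Atf7, a CRE-binding relative of ATF2. Atf7 was at 133, 110.2 and 135 CPM with MSC-EVs and 83.7, 77.1 and 74.5 CPM with NS. It rose by 0.688 (adjusted p = 0.0209), and by 0.776 with MSC-EVs replicate 2 left out. Its call was lost on dropping NS replicate 3, and likewise on dropping MSC-EVs replicate 1, as each of those fits called 0 genes.

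**Figure D5:**
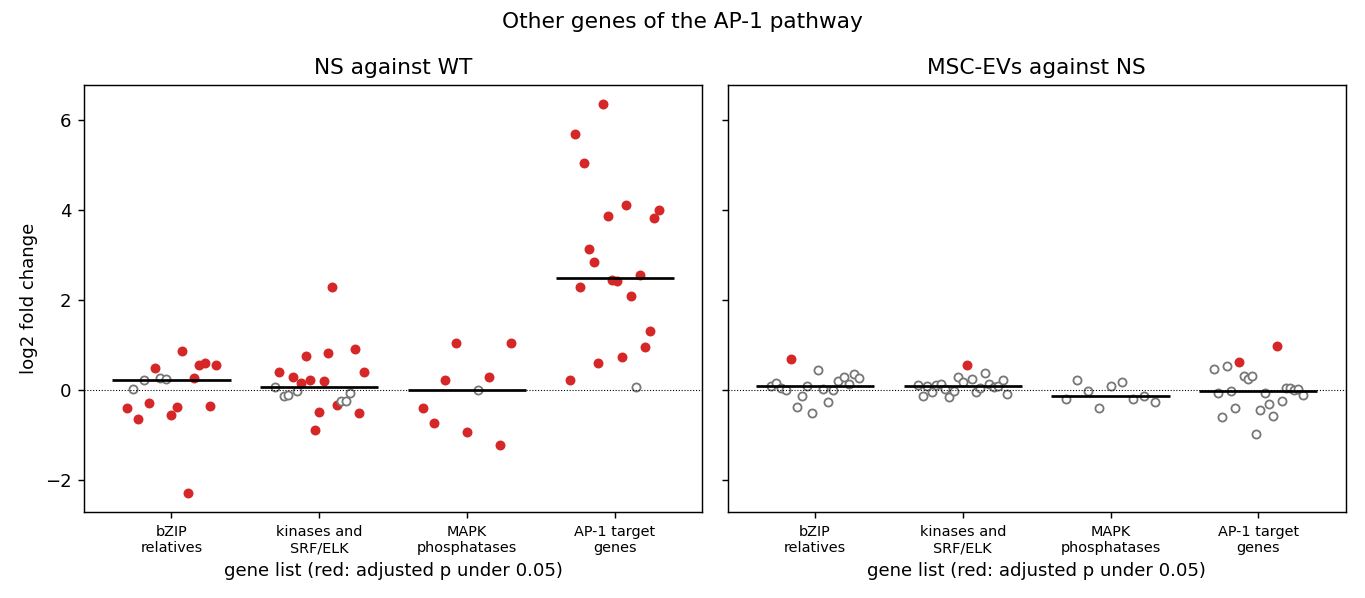
Log2 fold changes (y axis) of the tested genes of 4 lists, other bZIP factors, upstream kinases with SRF and ELK factors, MAP kinase phosphatases and AP-1 target genes, between NS-treated rd10 and WT (left) and between the rd10 groups (right), with 1 point per gene, red where the edgeR adjusted p was under 0.05, and lines at the list medians. On the left the target genes centre on 2.49 and the other lists near 0, and on the right 4 points in all are red.

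Finally, the genes whose profile over the 9 libraries lay nearest to each tested member were found, as the smallest root-mean-square difference of centred log2(CPM + 1) values among 13827 genes. Nearest to Fos were Per1, a clock gene, Egr3, an immediate-early zinc finger gene, and Aass, with differences of 0.209 to 0.240. Per1 was at 97.3, 97.9 and 105.5 CPM in WT, 133.9, 137.7 and 117.9 with NS and 73.1, 141.8 and 83.6 with MSC-EVs, so it too was highest in MSC-EVs replicate 2. Fosl2 and Maff were among the nearest genes of each other, at 0.208, and both shared Zfp36, which encodes an mRNA-destabilizing protein, and Epha2, an ephrin receptor gene.

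Jun and Jund shared Slc7a1, an amino acid transporter gene, as their nearest gene, at 0.124 and 0.0972, and Jund was the next gene for Jun. Junb was nearest to Micall2 (0.127), and Fosl1 was nearest to Hmga2 (0.340), a chromatin gene at 2.92, 16.0 and 1.67 CPM with MSC-EVs. Fosb and Atf3 had different neighbours. Fosb was nearest to Myo5b (0.113) and then to Tnc, and Atf3 was nearest to Zfp92 (0.154), Nes, which encodes nestin, and Wwtr1. The 9 libraries share their group differences and the library that stood apart, and these distances are descriptions of likeness over the libraries.

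In the GENCODE M21 annotation of GRCm38, the protein-coding member genes lie on 8 chromosomes. Fos and Batf lie on chromosome 12, from 85473890 to 85477273 and from 85686669 to 85709087, both on the plus strand. Junb and Jund lie on chromosome 8, on the minus and the plus strand, from 84974484 to 84978718 and from 70698949 to 70700616. Fosb is on chromosome 7 from 19302696 to 19310051, Fosl1 on chromosome 19 from 5447547 to 5455946, Fosl2 on chromosome 5 from 32135801 to 32157842 and Jun on chromosome 4 from 95049034 to 95052222. Atf3 is on chromosome 1 from 191170296 to 191218039 and Maff on chromosome 15 from 79346621 to 79359076. Of the stretches of 50 bases in the transcripts of each member, 0% occurred in transcripts of another gene. Stretches were matched letter for letter and on the transcript strand only, so the overlaps with opposite-strand genes given above are not covered. Whether reads were shared between genes was not tested.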

How the data were processed

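RNA-seq covered 9 retinal libraries, 3 for each of the groups WT, NS and MSC-EVs. The authors deposited 1 table that lists, by gene and library, the estimated (expected) count beside the FPKM. The deposited estimated counts were not scaled to depth. The deposited FPKM values were scaled by the authors to transcript length and library depth. The submitters' processing notes name fastp, Bowtie2, HISAT2, StringTie 1.3.1 and RSEM, while the build, the annotation and the strand setting are not given in the sources used here. Positions therefore came from GENCODE M21 on GRCm38, matched by gene identifier.

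The design assumed counts. Decimals occurred in 9.16% to 11.7% of the genes of a library, and counts were rounded to whole numbers before the fits. Each pair of groups was fitted on its 6 libraries over all genes with edgeR 4.0.16 in R 4.3.3 (filterByExpr, TMM, glmQLFit with robust estimation, glmQLFTest), and p-values were adjusted with Benjamini-Hochberg over all genes tested. A gene was called at an adjusted p under 0.05 and taken as differentially expressed where its log2 fold change was also 1 or more in size. The SE is the absolute log2 fold change divided by the square root of F. Intervals and floors on counts cover counting error only. The scripts were tested on simulated data. The common biological coefficient of variation was 7.97% for NS against WT, 12.5% between the rd10 groups and 10.8% for MSC-EVs against WT. Replicates differed by more than sampling noise. Chi-square divided by its degrees of freedom was 4.10 to 5.85 in WT, 9.5 to 14.6 with NS and 13.7 to 31.3 with MSC-EVs.

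The members and the gene lists were chosen with earlier results of these data known. Named were all members, up to 4 genes of each pathway list with the smallest adjusted p in NS against WT, those differentially expressed between the rd10 groups, and the 3 nearest genes of each member, of which 1 gene is not reported here. Ccdc85b, Prdx2, Ccl2, Plaur, Gadd45a, Atf7, Map3k1 and Fgf2 were named outside this rule, after their values were seen. Ddit3 had 2 rows of that symbol and was left out. Alternatives were DESeq2 1.42.0 (size factors, Wald test), no filter, a filter of 10 counts or more in each library, 1 fit of all 9 libraries, a replicate block, limma 3.58.1 on log2(FPKM + 1) and log2(FPKM + 0.1), a covariate for Y-linked expression, and each library left out in turn.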

Additional observations from a re-analysis of the deposited data

How the results depend on the processing

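In NS against WT, the members kept their direction under every alternative run, and the number called was 7 to 9 except in the fit of all 9 libraries, which called 5. Between the rd10 groups, where 0 of 9 members were called, the Wald test of DESeq2 called 1 and the fit of all 9 libraries 1. Leaving out each library gave 0 to 6 called and 0 to 3 differentially expressed, the highest both without MSC-EVs replicate 2. Over all genes, 172 were called there by edgeR, 947 by DESeq2, 1026 with all 9 libraries and 676 without that replicate, while leaving out NS replicate 3 gave 0, as did leaving out MSC-EVs replicate 1. With each library left out, the log2 fold change between the rd10 groups changed sign in Fosl1 (-3.895 to 0.406), Jun (-0.479 to 0.208), Junb (-0.502 to 0.153) and Jund (-0.414 to 0.093). In MSC-EVs against WT it changed sign in Fos (-0.462 to 0.361) and Jun (-0.048 to 0.635). There, the Y-linked covariate gave 3 called and 3 differentially expressed members and put Fos at -0.195, in a fit where MSC-EVs replicate 3 alone stood for its group. Between the rd10 groups, MSC-EVs replicate 3 alone again stood for its group in the fit with that covariate. The log2 fold changes were then -4.73 in Fosl1, -1.54 in Maff, -1.098 in Fosl2, -0.75 in Fos and -0.547 in Junb. They were -0.375 in Jun, -0.345 in Jund, 0.401 in Fosb and 0.666 in Atf3. The causes of these changes were not tested. Of all values of single members under the alternatives, 344 kept their direction and side of the threshold, 5 lost the call, 15 gained it and 16 changed sign. Over all genes, limma on log2(FPKM + 1) gave 985 differentially expressed genes in place of 1863 in NS against WT and 1002 in place of 1784 in MSC-EVs against WT, and between the rd10 groups the 9 became 0 to 82 with a library left out, 25 with DESeq2, 38 with all 9 libraries, 21 with the replicate block and 28 with the Y-linked covariate.

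The same replicate numbers in the groups marked no shared animal or day in the labels. Same-numbered libraries had correlations of their deviations of 0.087, 0.208 and 0.281 between the rd10 groups, where every library correlated best with its own number, as a hint from the data, and of -0.078 to 0.087 in NS against WT. The replicate block gave 9 members called in NS against WT, with Jun at an adjusted p of 0.0307, 2 between the rd10 groups (Atf3 at 0.746, adjusted p = 0.0278, and Maff at -0.929, adjusted p = 0.0383; 403 of all genes), and 5 in MSC-EVs against WT, where Fos stood at -0.071. Depth limits Batf, with 0 to 13 counts per library, and Fosl1 in WT.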
